A study of Mus musculus with 8 samples.

Results

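The 38 genes described here drive or mark the cell cycle: 16 of them act in G1 (cyclins D and E, their kinases, inhibitors and the retinoblastoma and E2F families), 11 act in S phase (origin licensing, the replication clamp and nucleotide supply) and 11 act in mitosis (cyclins A and B, their kinase, and chromosome and spindle proteins). They were chosen by symbol, and all 38 were listed among the 54532 genes of the deposited expression table. Only genes that averaged 0.1 FPKM or more across the 8 livers were tested, which applied to 34 of the 38 and to 16645 of all genes. FPKM counts fragments per kilobase of a gene, scaled to the size of the library, so levels of different genes are compared per length throughout. The 4 members under this level were Cdc6, Ccnb1, Plk1 and Aurkb, which are given by their values. Where values are listed liver by liver, they run in the order of the mouse numbers 1 to 4.

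Both groups, METTL3-HKD and METTL3-Flox, held 4 livers, and each library is 1 numbered mouse. METTL3-HKD mice carried the genotype METTL3 flox/-; Alb-iCre, in which a Cre driven by the albumin promoter acts in hepatocytes, and they are heterozygous animals with a knockdown rather than a loss of METTL3, the catalytic subunit of an RNA adenosine methyltransferase. METTL3-Flox mice were METTL3 flox/flox littermates without the transgene; the floxed segment is exon 4, and the founders were bred to C57BL/6 mice. Every mouse of both groups underwent 1 h of ischemia and 6 h of reperfusion, no unoperated or sham liver was analysed here, and the age and sex of these mice are not given in the sources used here. The question addressed is which genes of the cycle differ between the injured livers of the 2 genotypes.

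Mature hepatocytes are quiescent and enter the cycle after injury or loss of tissue. D-type cyclins with Cdk4 or Cdk6, then cyclin E with Cdk2, phosphorylate the retinoblastoma proteins and release E2F factors, whose targets include the Mcm helicase and the enzymes of nucleotide supply. Genes of mitosis are expressed later, mostly through a repressor complex called DREAM and its activating counterparts, which reach their promoters through CHR elements and CCAAT boxes. Cycling blood and immune cells express the same genes, so in whole liver, fewer cells of a type and less RNA per cell cannot be told apart.

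Depth on genes, rebuilt from the FPKM, was 15961479 to 18434488 reads in METTL3-HKD livers and 15861245 to 17262991 reads in METTL3-Flox livers. The effective library sizes by which the FPKM were scaled did separate the groups. They were 18063236 to 20114825 in METTL3-HKD and 14210943 to 16158035 in METTL3-Flox livers. Mettl3 itself had 1.33 ± 0.181 FPKM (SD, n = 4) in METTL3-HKD and 1.499 ± 0.282 FPKM (SD, n = 4) in METTL3-Flox livers. The groups overlapped (log2 fold change −0.16, standard error 0.165, adjusted p = 0.556, limma with Benjamini-Hochberg adjustment), so whole-liver RNA did not separate the genotypes at this gene; 18.4% of its exonic bases are shared with Tox4 on the opposite strand. Hepatocyte markers (Alb, Apoa1, Ttr, Apob and Cps1) summed to 20680 to 30430 FPKM in METTL3-HKD and 26590 to 29850 FPKM in METTL3-Flox livers, with 0 of 5 called by limma and 0 at an unadjusted p under 0.05.

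The promoters of the members differed by phase. A RefSeq window on GRCm38.p6, from 250 bases before to 50 bases after the transcription start, was at hand for 31 of the 38 members and for 10978 of the tested genes. Letters of an E2F site (TTTGGCGC, TTTCCCGC, TTCCCGCC or TTTGGCGG, of which TTTCCCGC and TTCCCGCC can overlap) were present in the windows of 7.23% of tested genes, of 3 of 12 G1 members, of 6 of 10 S phase members and of 0 of 9 mitotic members, reading both strands. CHR letters (TTTGAA or TTCGAA, both strands) were in 16.7% of tested genes, in 3 of 12 G1, 2 of 10 S phase and 7 of 9 mitotic members. A CCAAT box was in 42.3% of tested genes, in 6 of 12 G1, 8 of 10 S phase and 8 of 9 mitotic members. CHR letters together with a CCAAT box were found in 6.67% of tested genes and in 7 of 9 mitotic members, Birc5 and Ccnb1 being the other two. These matches describe letters in a window and are not measured binding sites. The 31 members had 36 windows, and for 29 of these the last bases were found in an annotated transcript of the gene. The window of Pcna was not among those 29, so its start is less certain.

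**Figure D1:**
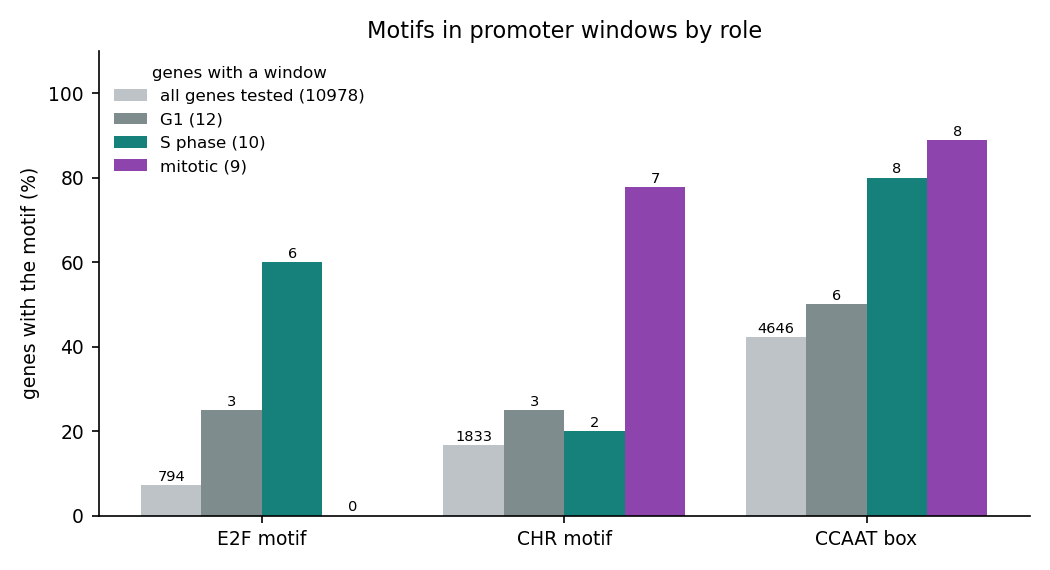
Share (%) of genes whose promoter window holds an E2F motif, a CHR motif or a CCAAT box, for all tested genes with a window and for the members by role; the number on each bar counts the genes with the motif. E2F letters are most frequent among S phase members (6 of 10) and CHR letters among mitotic members (7 of 9).

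Windows of 4 members are shown, with matches in capitals, because these genes carry or bracket the differences reported further on. They are Ccnb2 (chr9:70421505-70421804, minus strand), a mitotic member with CHR letters and CCAAT boxes, Birc5 (chr11:117848987-117849286, plus strand), a mitotic member without a match, Pcna (chr2:132253131-132253430, minus strand), an S phase member with a CCAAT box alone, and Mcm3 (chr1:20820263-20820562, minus strand), an S phase member with E2F letters and CCAAT boxes. Capitals that read GGCGGGAAA or ATTGG are matches on the opposite strand.
Ccnb2: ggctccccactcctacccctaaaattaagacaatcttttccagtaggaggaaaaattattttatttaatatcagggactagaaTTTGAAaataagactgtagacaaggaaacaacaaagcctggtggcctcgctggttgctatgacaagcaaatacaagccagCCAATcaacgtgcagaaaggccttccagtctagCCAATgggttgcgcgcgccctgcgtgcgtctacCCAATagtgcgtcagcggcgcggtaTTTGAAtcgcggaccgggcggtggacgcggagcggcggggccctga
Birc5: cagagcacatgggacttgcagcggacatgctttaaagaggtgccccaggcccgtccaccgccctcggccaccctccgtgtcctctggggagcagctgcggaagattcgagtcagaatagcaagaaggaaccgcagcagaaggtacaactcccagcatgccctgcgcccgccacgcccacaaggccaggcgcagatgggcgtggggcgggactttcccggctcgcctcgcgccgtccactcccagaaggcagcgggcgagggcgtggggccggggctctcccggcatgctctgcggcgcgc
Pcna: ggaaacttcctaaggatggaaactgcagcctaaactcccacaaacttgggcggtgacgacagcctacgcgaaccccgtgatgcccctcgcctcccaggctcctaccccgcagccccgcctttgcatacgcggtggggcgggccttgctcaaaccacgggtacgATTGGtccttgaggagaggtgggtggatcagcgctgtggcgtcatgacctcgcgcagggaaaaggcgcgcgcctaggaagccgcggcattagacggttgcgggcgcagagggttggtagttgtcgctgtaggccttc
Mcm3: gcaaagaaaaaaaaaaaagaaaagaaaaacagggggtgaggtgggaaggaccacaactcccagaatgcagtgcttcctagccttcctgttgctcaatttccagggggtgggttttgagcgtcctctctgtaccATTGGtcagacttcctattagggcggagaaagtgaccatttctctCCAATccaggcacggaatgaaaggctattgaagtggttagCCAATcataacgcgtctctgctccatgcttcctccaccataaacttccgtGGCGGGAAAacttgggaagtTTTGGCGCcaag
In Ccnb2, the 3 CCAAT boxes begin 87, 54 and 21 bases before the start. One of its TTTGAA copies begins 167 bases before the start and the other lies within the first bases of the transcript. The E2F letters of Mcm3 all lie after the start, and those that overlap are counted as 1 stretch in capitals.

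Mitotic members were lower and S phase members higher in METTL3-HKD livers by their group means, while few single genes passed the test. Mean FPKM was lower in METTL3-HKD for 10 of 11 mitotic members, Aurka being the exception, and higher for 9 of 11 S phase members, Cdc6 and Tyms being the exceptions. G1 members split into 8 higher and 8 lower. With the reads on genes as library sizes, the sign of Tyms and of the G1 members Ccne1, Cdk2, Cdk6, Cdkn1b and Rb1 turned positive. An adjusted p under 0.05 (limma on log2(FPKM + 0.1), Benjamini-Hochberg over all 16645 genes) was reached by 4 members: Pcna was higher, and Cdkn2c, Ccnb2 and Birc5 were lower.

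The counts are set beside the share of all tested genes. The 1 member called higher is 2.94% of the 34 tested, against 9.05% of all tested genes, and the 3 called lower are 8.82%, against 6.63% of all tested genes. With a log2 fold change of at least 1 required as well, 0 members were higher (4.7% of all genes) and Ccnb2 and Birc5 were lower, which is 5.88% of the tested members against 1.52% of all genes. Birc5 reached the minimum level only through the METTL3-Flox livers, so this share in part follows from that minimum and is not a result about the members. The METTL3-HKD livers all exceeded the METTL3-Flox livers for 4 tested members (Ccnd2, Cdk4, Mcm5 and Pcna), 11.8% against 12.7% of all genes. The reverse held for 3 tested members (Cdkn2c, Ccnb2 and Birc5), 8.82% against 9.95% of all genes, and for Ccnb1, which was not tested. At an unadjusted p under 0.05, 6 members were higher (17.6%, against 16.7% of all genes) and 4 were lower (11.8%, against 15.1%), shares near or below those of all genes.

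The median log2 fold change over tested members was 0.01 in G1 (16 genes, −0.75 to 0.78), 0.35 in S phase (10 genes, −0.11 to 0.53) and −0.70 among mitotic members (8 genes, −1.39 to 0.17), against −0.0028 over all genes tested. Like Birc5, Top2a reached the minimum level only through the METTL3-Flox livers, both METTL3-HKD means being under 0.1 FPKM, so the mitotic median describes the members that passed and no more. When the reads on genes were used as library sizes instead, the median of all genes moved to 0.20, the role medians to 0.22, 0.55 and −0.56, and the calls among members to 5 higher (Ccnd1, Cdk4, Mcm3, Mcm5 and Pcna) and 2 lower (Ccnb2 and Birc5). These are 14.7% and 5.88% of the tested members, against 13.9% and 2.24% of all genes under the same scaling, so the higher calls lie near the share of all genes. Without METTL3-Flox liver 3, 0 members were called by limma, with 5 higher and 3 lower at an unadjusted p under 0.05. This omission also lowered the shares of all genes called, to 4.49% higher and 2.13% lower. On the rebuilt reads, voom called 6 members, adding Ccnd2 and Top2a to the 4 of the main fit. By voom, 5.88% of tested members were higher and 11.8% lower, against 9.26% and 7.22% of all genes.

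**Figure D2:**
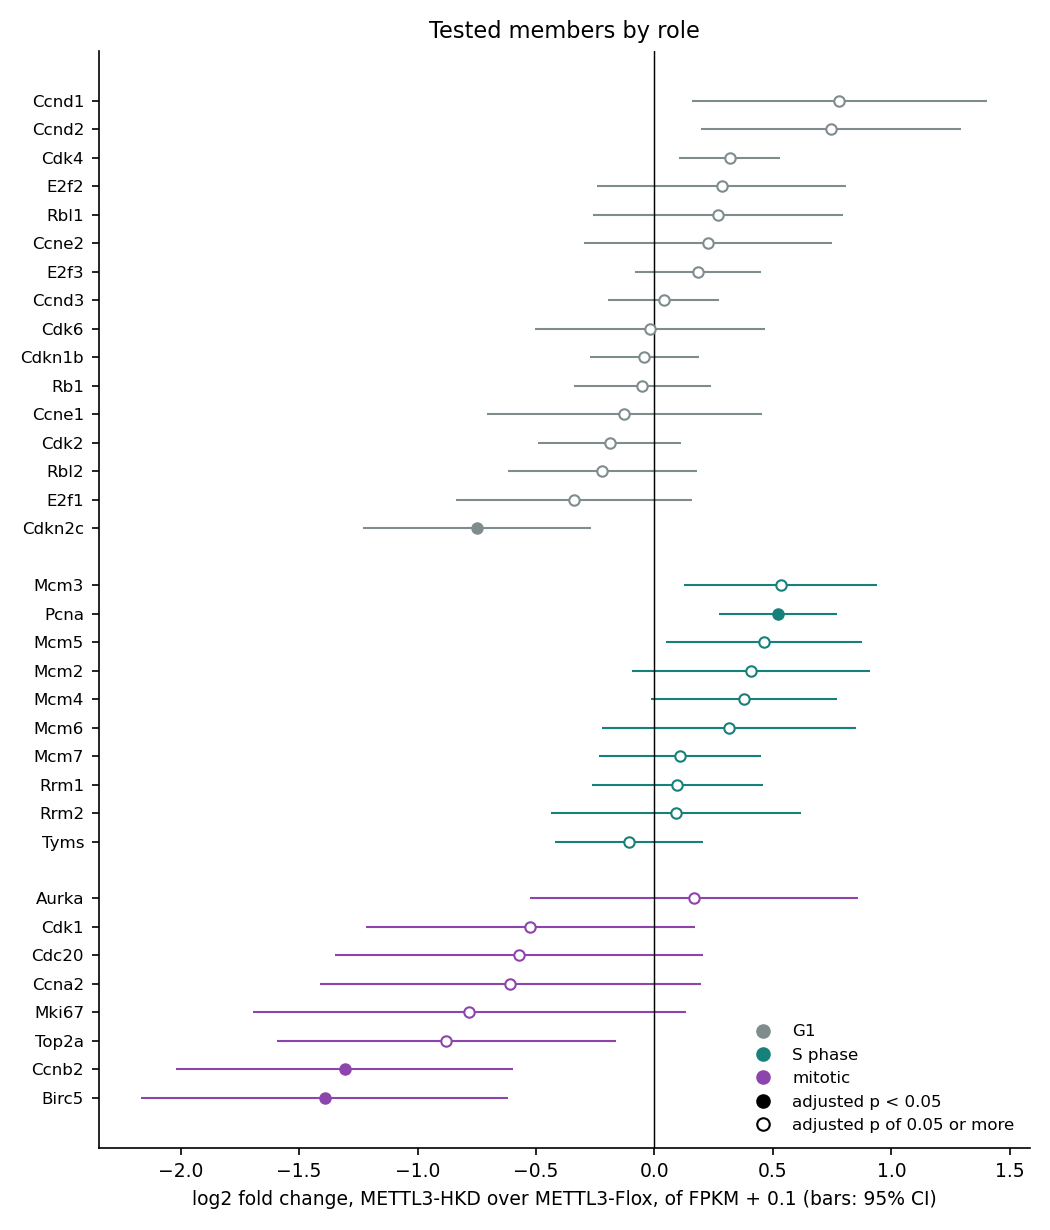
log2 fold change (METTL3-HKD over METTL3-Flox, of FPKM + 0.1) of the 34 tested members by role, with 95% confidence intervals from limma; filled points have an adjusted p under 0.05. Pcna lies at 0.52, and Cdkn2c, Ccnb2 and Birc5 lie at −0.75, −1.31 and −1.39.

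Cyclin B2 (Ccnb2) and survivin (Birc5) carried the largest differences among the tested members. Birc5 passed the minimum level only through the METTL3-Flox livers, so its rank in part follows from that minimum. Ccnb1 was under the minimum and is outside this ranking. Ccnb2, on chromosome 9 of GRCm38 from 70407692 to 70421547, encodes a cyclin that partners Cdk1 at entry into mitosis. The METTL3-HKD livers showed 0.0325, 0.177, 0.181 and 0.176 FPKM, and the METTL3-Flox livers showed 0.552, 0.323, 0.559 and 0.487 FPKM. All METTL3-HKD livers lay below all METTL3-Flox livers. The means were 0.141 ± 0.073 FPKM (SD, n = 4) and 0.480 ± 0.109 FPKM (SD, n = 4), 3.39 times as high in METTL3-Flox, giving a log2 fold change of −1.31 with a standard error of 0.315 (adjusted p = 0.0269, limma with Benjamini-Hochberg adjustment) and a two-sided exact permutation p of 0.0286, the smallest that 4 against 4 livers allow. Every member with separate groups has this permutation p by construction, so here and below it only restates the separation.

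These Ccnb2 values rest on 1 to 5 reads in each METTL3-HKD library and on 8 to 13 in each METTL3-Flox library. A processed copy, Ccnb2-ps on chromosome 8, held 8 to 26 reads in METTL3-HKD libraries, more than the gene itself in each. In METTL3-Flox libraries the copy held 6 to 19 reads. Its levels were 0.188 to 0.627 FPKM in METTL3-HKD and 0.172 to 0.582 FPKM in METTL3-Flox livers. The reads of both loci together came to 20, 22, 31 and 13 in METTL3-HKD and 31, 17, 19 and 25 in METTL3-Flox livers. The summed reads, also when scaled to the effective library sizes, overlapped between the groups, and reads that could belong to either copy make the value of Ccnb2 uncertain. The adjusted p rose to 0.0544, 0.0774 and 0.0654 (limma, Benjamini-Hochberg) without METTL3-Flox livers 1, 3 and 4, and the fold change was −1.84 by voom on the rebuilt reads and −0.37 with a pseudocount of 1 FPKM.

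Birc5, on chromosome 11 from 117849251 to 117855743, encodes survivin, a subunit of the chromosomal passenger complex and an inhibitor of apoptosis. The METTL3-HKD livers showed 0.0438, 0.0477, 0.0976 and 0 FPKM, and the METTL3-Flox livers showed 0.290, 0.146, 0.387 and 0.329 FPKM. Again the groups were separate, METTL3-Flox liver 2 being the nearest to the METTL3-HKD livers. The value of 0 in METTL3-HKD liver 4 allows up to 0.0475 FPKM, the level of 3 reads. Means were 0.0473 ± 0.0399 FPKM (SD, n = 4) and 0.288 ± 0.103 FPKM (SD, n = 4), giving a log2 fold change of −1.39 with a standard error of 0.343 (adjusted p = 0.0289, limma with Benjamini-Hochberg adjustment; exact permutation p = 0.0286). Reads numbered 0 to 6 in METTL3-HKD and 8 to 20 in METTL3-Flox libraries, and the fold change was −2.83 by voom and −0.30 with a pseudocount of 1 FPKM. The call was lost without METTL3-HKD liver 1, 2 or 4 and without METTL3-Flox liver 1, 3 or 4, with adjusted p values of 0.0543 to 0.0867 (limma, Benjamini-Hochberg).

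**Figure D3:**
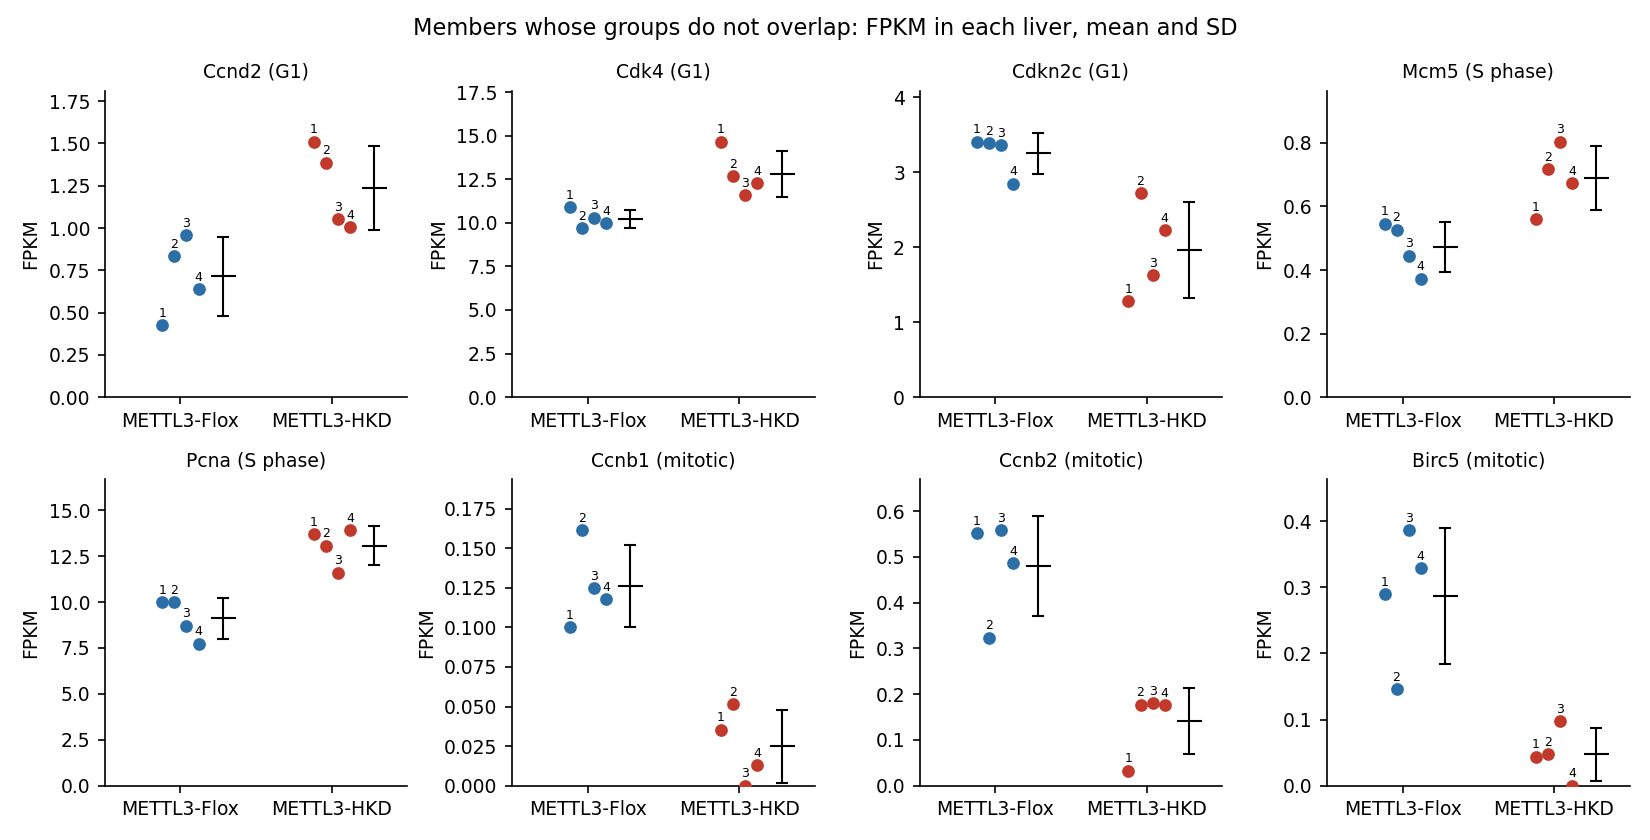
FPKM in each liver (numbered points) with the group mean and SD (bars) for the 8 members whose groups do not overlap; each axis starts at 0. Ccnd2, Cdk4, Mcm5 and Pcna lie higher and Cdkn2c, Ccnb1, Ccnb2 and Birc5 lower in the METTL3-HKD livers.

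Ccnb1, the other B-type cyclin of mitotic entry, had a mean of 0.0755 FPKM over the 8 livers and was under the level for a test. It showed 0.0354, 0.0513, 0 and 0.0128 FPKM in the METTL3-HKD group and 0.1001, 0.161, 0.125 and 0.118 FPKM in the METTL3-Flox group, again without overlap (exact permutation p = 0.0286). At 0 to 4 against 6 to 11 reads per liver, the values are close to the counting limit, which for METTL3-HKD liver 3 is 0.0394 FPKM. With no minimum level the fit gave −0.87 (standard error 0.190, adjusted p = 0.0313, limma over 25793 genes with Benjamini-Hochberg adjustment). In that fit the other members under the level, Aurkb, Plk1 and Cdc6, had adjusted p values of 0.136, 0.377 and 0.691. The pseudogene Ccnb1-ps was at 0 FPKM in all METTL3-HKD livers and at 0 to 0.307 FPKM in METTL3-Flox livers.

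The remaining mitotic members had lower METTL3-HKD means apart from Aurka, and none of those tested passed the adjusted threshold. Top2a, which untangles replicated DNA, had 0.143, 0.0660, 0.0430 and 0.0418 FPKM in METTL3-HKD and 0.203, 0.131, 0.285 and 0.248 FPKM in METTL3-Flox livers. Only METTL3-HKD liver 1 reached into the METTL3-Flox range (log2 fold change −0.88, standard error 0.316, adjusted p = 0.0905, limma with Benjamini-Hochberg adjustment). Mki67, the widely used marker of cycling cells, ranged from 0.0645 to 0.138 FPKM in METTL3-HKD and from 0.0800 to 0.549 FPKM in METTL3-Flox livers, and its log2 fold change of −0.78 (95% confidence interval −1.70 to 0.13) had an adjusted p of 0.217.

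Fold changes of Ccna2 (cyclin A2), Cdk1 (the mitotic kinase) and Cdc20 (an activator of the anaphase-promoting complex) were −0.61, −0.52 and −0.57, with adjusted p values of 0.270, 0.271 and 0.284 by limma with Benjamini-Hochberg adjustment. Ccna2 shares 12.5% of its exonic bases with Exosc9, and Cdc20 shares 2.84% with Elovl1, both on the opposite strand and at higher levels. Plk1 and Aurkb, mitotic kinases under the minimum level, had means of 0.0580 and 0.0407 FPKM in METTL3-HKD and 0.134 and 0.116 FPKM in METTL3-Flox livers, with overlap in both. Aurka, a spindle pole kinase, was the most abundant mitotic member at 0.968 ± 0.430 FPKM in METTL3-HKD and 0.830 ± 0.277 FPKM in METTL3-Flox livers (SD, n = 4 each), and its log2 fold change of 0.17 (95% confidence interval −0.53 to 0.86) had an adjusted p of 0.748.

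Summed over the 11 mitotic members, levels were 1.97 ± 0.562 FPKM (SD, n = 4) in METTL3-HKD and 3.38 ± 0.809 FPKM (SD, n = 4) in METTL3-Flox livers. METTL3-HKD liver 2 (2.74 FPKM) lay above METTL3-Flox liver 2 (2.38 FPKM), so the sums overlapped. Leaving out Aurka, a choice made after the values were seen, gave 0.802 to 1.16 FPKM against 1.84 to 3.501 FPKM. METTL3-Flox liver 3 was the highest of its group for 8 of the 11 members and METTL3-Flox liver 2 the lowest for 8, so the spread within METTL3-Flox was shared by the genes. All 11 members together had 86 to 154 reads in METTL3-HKD and 134 to 270 reads in METTL3-Flox libraries.

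**Figure D4:**
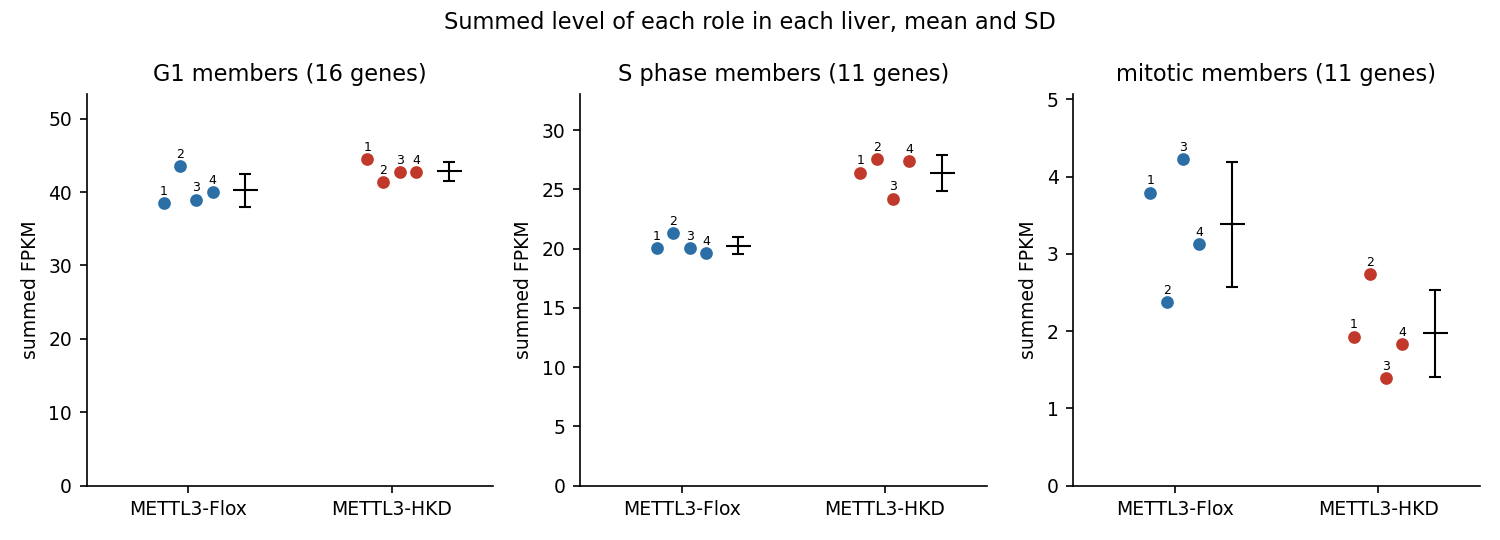
Summed FPKM of the 16 G1, 11 S phase and 11 mitotic members in each liver (numbered points), with the group mean and SD (bars). The S phase sums do not overlap (24.2 to 27.6 FPKM in METTL3-HKD, 19.6 to 21.3 FPKM in METTL3-Flox), while the G1 and mitotic sums do.

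Among S phase members, Pcna was called higher. Pcna, on chromosome 2 from 132249162 to 132253314, encodes the sliding clamp of DNA polymerases, which also serves in DNA repair. The METTL3-HKD livers showed 13.7, 13.1, 11.6 and 13.9 FPKM, and the METTL3-Flox livers showed 9.998, 10.01, 8.72 and 7.74 FPKM. The lowest METTL3-HKD liver exceeded the highest METTL3-Flox liver. The means were 13.1 ± 1.05 FPKM (SD, n = 4) and 9.11 ± 1.10 FPKM (SD, n = 4), 1.43 times as high in METTL3-HKD, giving a log2 fold change of 0.52 with a standard error of 0.110 (adjusted p = 0.0177, limma with Benjamini-Hochberg adjustment; exact permutation p = 0.0286). With 503 to 662 and 299 to 388 reads per liver, it was the best covered of the called members, and the copy Pcna-ps2 was at no more than 0.2799 FPKM. Without METTL3-Flox liver 3 the adjusted p was 0.0552 (limma, Benjamini-Hochberg).

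The subunits of the Mcm2 to Mcm7 helicase, which unwinds DNA at origins, all had positive log2 fold changes, and none passed the adjusted threshold. Their median was 0.39, from 0.11 for Mcm7 to 0.53 for Mcm3, with adjusted p values of 0.0756 to 0.659 by limma with Benjamini-Hochberg adjustment. At an unadjusted p under 0.05, 2 of the 6 differed, both higher, where 16.7% of all genes were higher and 15.1% lower. With 6 genes, this count is not a result about the helicase. Mcm5 was the one whose groups were separate, with 0.560, 0.718, 0.804 and 0.674 FPKM in METTL3-HKD livers and 0.546, 0.527, 0.445 and 0.373 FPKM in METTL3-Flox livers (log2 fold change 0.46, standard error 0.183, adjusted p = 0.118, limma with Benjamini-Hochberg adjustment; exact permutation p = 0.0286).

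Mcm3 had 1.88, 2.005, 1.17 and 1.61 FPKM in METTL3-HKD and 1.16, 1.24, 0.964 and 1.04 FPKM in METTL3-Flox livers, and METTL3-HKD liver 3 lay within the METTL3-Flox range (adjusted p = 0.0756 by limma with Benjamini-Hochberg adjustment, and 0.0201 without that liver). Mcm7 shares exonic bases with Cops6 and Ap4m1 on the opposite strand, and its fold change turned to −0.015 without METTL3-Flox liver 2. The genes of nucleotide supply stayed near 0: Rrm1 and Rrm2, the subunits of ribonucleotide reductase, had log2 fold changes of 0.10 and 0.09, and Tyms, thymidylate synthase, had −0.11, with adjusted p values of 0.627 to 0.822 by limma with Benjamini-Hochberg adjustment. Their 95% confidence intervals were −0.26 to 0.46, −0.44 to 0.62 and −0.42 to 0.20. Cdc6, which loads the helicase, was at 0 to 0.0414 FPKM in METTL3-HKD and 0 to 0.108 FPKM in METTL3-Flox livers.

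The S phase sum was 26.4 ± 1.54 FPKM (SD, n = 4) in METTL3-HKD and 20.3 ± 0.734 FPKM (SD, n = 4) in METTL3-Flox livers. Pcna makes up about as much of it as the 10 others together. Without Pcna, the sums were 12.6 to 14.5 FPKM in METTL3-HKD and 10.1 to 11.9 FPKM in METTL3-Flox livers and remained separate.

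**Figure D5:**
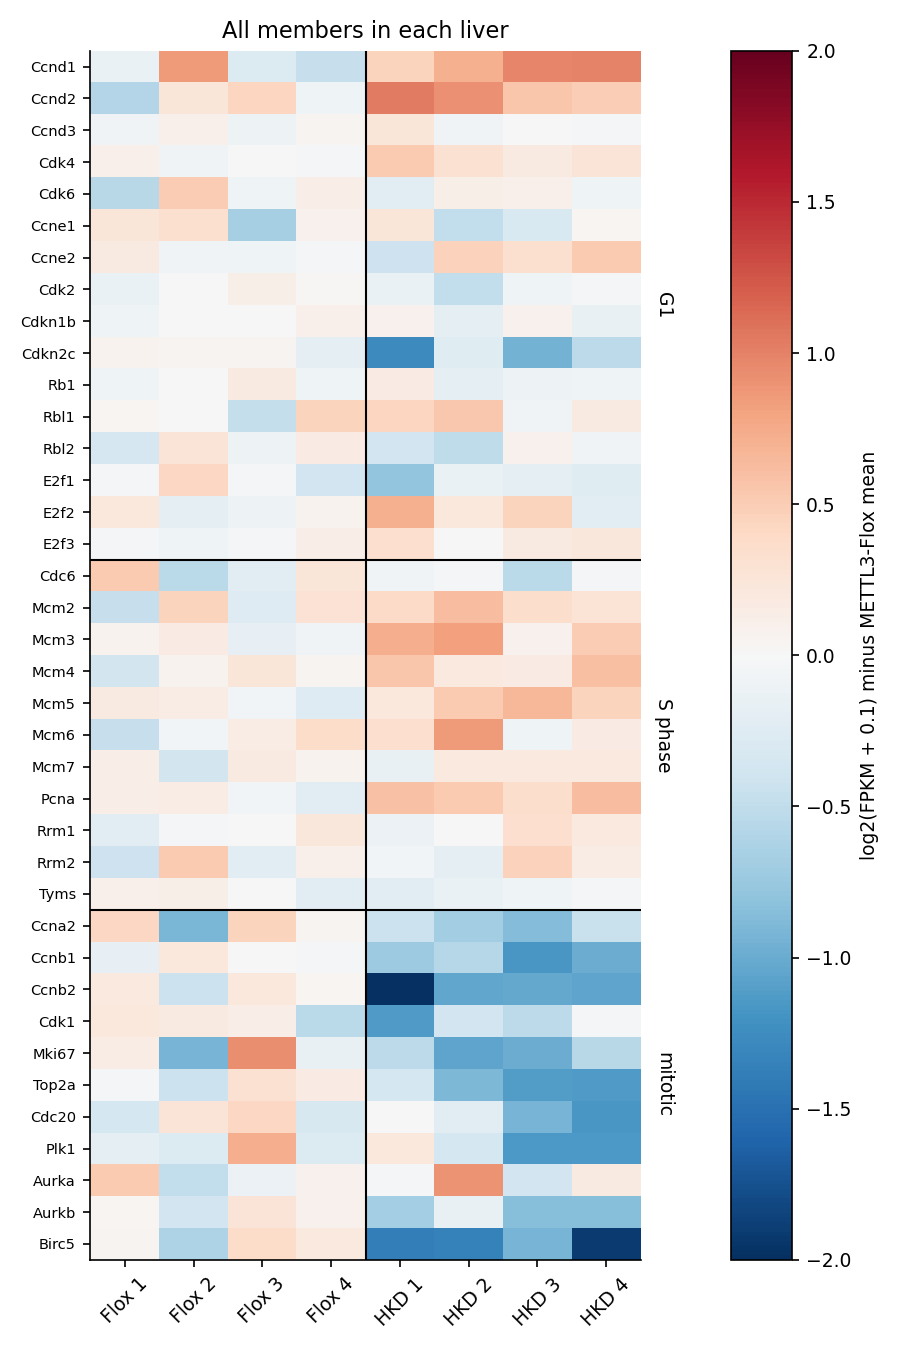
log2(FPKM + 0.1) of each of the 38 members in each liver minus the gene's METTL3-Flox mean; red is higher, blue is lower, and values beyond 2 in either direction are drawn at 2. Mitotic members are mostly blue in all 4 METTL3-HKD livers and in METTL3-Flox liver 2, S phase members are mostly red in METTL3-HKD livers, and G1 members are mixed.

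In G1, the inhibitor Cdkn2c (p18, which holds Cdk4 and Cdk6 inactive) was the only member called. Its gene lies on chromosome 4 from 109660876 to 109667189. The METTL3-HKD livers showed 1.28, 2.72, 1.63 and 2.22 FPKM, and the METTL3-Flox livers showed 3.41, 3.39, 3.36 and 2.84 FPKM. All METTL3-HKD values lay below the METTL3-Flox values, METTL3-HKD liver 2 and METTL3-Flox liver 4 being close. The means were 1.96 ± 0.638 FPKM (SD, n = 4) and 3.25 ± 0.270 FPKM (SD, n = 4), giving a log2 fold change of −0.75 with a standard error of 0.212 (adjusted p = 0.0447, limma with Benjamini-Hochberg adjustment; exact permutation p = 0.0286). The call held in 4 of 15 alternatives, and of the livers left out in turn, METTL3-HKD liver 2 was the single one whose omission kept it, with adjusted p values of 0.0276 to 0.104.

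Ccnd1, Ccnd2 and Cdk4 had higher means in METTL3-HKD livers without passing the threshold, while the third D-type cyclin, Ccnd3, and the other kinase, Cdk6, had log2 fold changes of 0.04 and −0.02. Ccnd2 (cyclin D2) had 1.51, 1.39, 1.05 and 1.01 FPKM in the METTL3-HKD group and 0.426, 0.835, 0.958 and 0.640 FPKM in the METTL3-Flox group, without overlap (log2 fold change 0.75, standard error 0.243, adjusted p = 0.0675, limma with Benjamini-Hochberg adjustment; exact permutation p = 0.0286). Cdk4 had 14.7, 12.7, 11.6 and 12.3 FPKM in the METTL3-HKD group and 10.9, 9.68, 10.3 and 9.9998 FPKM in the METTL3-Flox group, also without overlap (log2 fold change 0.32, standard error 0.0948, adjusted p = 0.0525, limma with Benjamini-Hochberg adjustment; exact permutation p = 0.0286). Without METTL3-HKD liver 3 the adjusted p of Cdk4 was 0.0437 (limma, Benjamini-Hochberg). Cdk4 is uncertain for another reason: 19.7% of its exonic bases are shared with Tspan31 on the opposite strand, a gene at 85.3 FPKM against 11.5 FPKM for Cdk4, and the strand setting of the counting is not given in the sources used here.

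Ccnd1 (cyclin D1, the main D-type cyclin of regenerating liver) had 2.78, 3.36, 4.08 and 4.09 FPKM in the METTL3-HKD group and 1.84, 3.73, 1.65 and 1.44 FPKM in the METTL3-Flox group. METTL3-Flox liver 2 lay within the METTL3-HKD range and the other METTL3-Flox livers below it. The log2 fold change was 0.78 (standard error 0.276, adjusted p = 0.0861, limma with Benjamini-Hochberg adjustment), and 1.07 without METTL3-Flox liver 2 (adjusted p = 0.0153). LTO1 shares 23.4% of the exonic bases of Ccnd1 on the opposite strand.

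The other 12 G1 members had log2 fold changes from −0.34 (E2f1) to 0.28 (E2f2), and their groups overlapped. They comprise Ccnd3, Cdk6, the E-type cyclins Ccne1 (−0.13) and Ccne2 (0.22), their kinase Cdk2 (−0.19), the inhibitor Cdkn1b (−0.04), the pocket proteins Rb1 (−0.05), Rbl1 (0.27) and Rbl2 (−0.22), and the activator E2f3 (0.18). Adjusted p values for these 12 genes were 0.313 to 0.964 by limma with Benjamini-Hochberg adjustment. Signs of Ccnd3, Cdk6, Cdkn1b and Rb1 turned when single livers were left out, and Ccne2, Ccnd3, Rb1 and Rbl2 share exonic bases with Ints8, Bysl, Rcbtb2 with Lpar6, and Aktip. The G1 sum was 42.8 ± 1.31 FPKM in METTL3-HKD and 40.3 ± 2.28 FPKM in METTL3-Flox livers (SD, n = 4 each), with overlap.

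Genes of the same pathway outside the 38 were taken from 7 lists by function, 103 genes of which 85 were tested. Of these 85, 4 were called higher (4.71%, against 9.05% of all genes) and 8 lower (9.41%, against 6.63%), with a median log2 fold change of −0.01. Among inhibitors of cyclin-dependent kinases, 1 of 4 tested was called: Cdkn1a (p21, induced by p53 and by stress), with 18.2 to 44.2 FPKM in METTL3-HKD and 1.53 to 14.1 FPKM in METTL3-Flox livers (log2 fold change 2.59, standard error 0.592, adjusted p = 0.0229, limma with Benjamini-Hochberg adjustment). Among 14 tested G2/M regulators, 1 was higher, Ccng1 (cyclin G1, also a p53 target), at 17.8 to 21.4 FPKM against 11.9 to 13.2 FPKM (log2 fold change 0.64, adjusted p = 0.0041). By sign alone, 10 of these 14 regulators lay higher and 4 lower in METTL3-HKD livers (median log2 fold change 0.245). Chek1, counted as higher, reached the minimum level only through the METTL3-HKD livers (means of 0.165 and 0.074 FPKM in METTL3-HKD and METTL3-Flox). Cks2, Cks1b and Fzr1 lay near 0 (0.0055, 0.049 and −0.013), so these signs describe the genes that passed and no more. Ccng1 kept its call in all 15 alternatives, and Cdkn1a in 11 of 15.

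Of 8 genes of nucleotide synthesis, 3 were called lower and 0 higher (limma; 1 higher at an unadjusted p under 0.05). Tk1, the thymidine kinase of the salvage pathway, was at 0.335, 0.593, 0.575 and 0.362 FPKM in METTL3-HKD livers and at 1.10, 1.44, 1.78 and 1.27 FPKM in METTL3-Flox livers. The groups were far apart (log2 fold change −1.41, standard error 0.222, adjusted p = 0.0072, limma with Benjamini-Hochberg adjustment), and the call held in 14 of 14 alternatives. Tk1 shares 1.60% of its exonic bases with Afmid on the opposite strand, at 3.16 FPKM. Paics, of purine synthesis, and Shmt1, of folate metabolism, had log2 fold changes of −0.46 and −1.0 (adjusted p = 0.0201 and 0.0327), and both are also expressed in resting liver. Paics kept its call in 9 of 15 alternatives and Shmt1 in 7 of 15.

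Origin licensing and firing had 1 of 14 tested genes in each direction. Mcm10, a firing factor, was lower, at 0.873 to 3.61 FPKM in METTL3-HKD and 5.03 to 7.27 FPKM in METTL3-Flox livers (log2 fold change −1.51, standard error 0.354, adjusted p = 0.0248, limma with Benjamini-Hochberg adjustment), and Orc2, a subunit of the origin recognition complex, was higher (0.70, adjusted p = 0.0232), with 29.8% of its exonic bases shared with Nif3l1. Polymerases and fork factors had 1 of 22 higher, the maintenance methylase Dnmt1 (0.56, adjusted p = 0.0281), and 1 lower, the primase-associated subunit Pola2 (−0.48, adjusted p = 0.0447). In the E2F and DREAM list, 1 of 11 tested was lower, the histone-binding subunit Rbbp4 (−0.26, adjusted p = 0.0491). Mcm10 kept its call in 11 of 15 alternatives, Orc2 and Dnmt1 in 10 of 15 each, and Pola2 and Rbbp4 in 3 of 15 each. With the reads on genes as library sizes, Rbbp4 had a log2 fold change of −0.049 (adjusted p = 0.778, limma with Benjamini-Hochberg adjustment).

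By sign, the tested spindle and kinetochore genes mostly lay lower, as the mitotic members did, whereas the tested G2/M regulators did not. Of the 12 tested, 10 had a negative log2 fold change, and the median was −0.29. Kif23 reached the minimum level only through the METTL3-Flox livers (means of 0.0898 FPKM in METTL3-HKD and 0.144 FPKM in METTL3-Flox). The count and median therefore describe the genes that passed and no more. The 2 called lower were Nek2, a centrosome kinase (−0.62, adjusted p = 0.0290), and Pttg1, securin (−0.31, adjusted p = 0.0474, limma with Benjamini-Hochberg adjustment). Nek2 kept its call in 4 of 14 alternatives and Pttg1 in 2 of 15, with −0.099 (adjusted p = 0.634) for Pttg1 when the reads on genes were the library sizes. Of the 21 genes of this list, 9 were under the minimum level. Among these, Ndc80 and Prc1 had higher METTL3-HKD means and the rest had lower ones. Leaving out single livers moved the calls over all 7 lists to between 1 and 5 higher and between 1 and 7 lower, and scaling to reads on genes gave 9 higher and 2 lower.

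Markers of several cell types moved with the groups. Summed neutrophil markers were 327 to 1595 FPKM in METTL3-HKD and 12.6 to 43.8 FPKM in METTL3-Flox livers, with 6 of 6 called higher and S100a9 the most abundant. Kupffer cell markers were 59.1 to 132 FPKM against 134 to 336 FPKM, with 4 of 5 called lower, Cd5l and Clec4f being the most abundant. Cholangiocyte markers were 119 to 369 FPKM against 52.5 to 77.6 FPKM, with 4 of 5 called higher. Most of that sum was Spp1 alone, at 109 to 355 FPKM against 46.4 to 73.5 FPKM.

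Monocyte and macrophage markers were 84.8 to 219 FPKM in METTL3-HKD and 55.1 to 85.5 FPKM in METTL3-Flox livers, with Ccr2 alone called higher of 5 (2 higher and 1 lower at an unadjusted p under 0.05). Most of that sum was Lyz2, while Adgre1 and Csf1r had log2 fold changes of −0.68 and −0.58. Erythroid precursor markers, from cells that divide, were 13.2 to 32.8 FPKM against 26.5 to 46.8 FPKM with 0 of 4 tested called (1 lower at an unadjusted p under 0.05), and T and NK cell markers (0.421 to 1.99 against 0.671 to 1.49 FPKM) and B cell markers (0.369 to 0.845 against 0.415 to 0.717 FPKM) were low and overlapping. Sinusoidal endothelial markers were 43.6 to 50.3 FPKM against 46.8 to 56.4 FPKM with 0 of 5 called (1 higher at an unadjusted p under 0.05), and stellate cell markers 10.2 to 17.8 FPKM against 8.39 to 13.8 FPKM with Des called higher and Lrat lower. None of the markers on these lists was at 0 FPKM in all livers. The part of these cell types in the differences of the cell cycle members was not tested.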

How the data were processed

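RNA of 8 mouse livers (4 METTL3-HKD, 4 METTL3-Flox, grouped by the sample labels) was sequenced from SMARTer mRNA-Seq libraries. The authors deposited FPKM for 54532 genes with the length of each gene, a value of another kind that was used with FPKM to rebuild reads. Submitters' processing notes name GRCm38 (mm10), and the aligner, counter and strand setting are not given in the sources used here. The deposited FPKM times gene length and an effective library size gave whole reads (within 0.05) for 100% of values. Reads on genes were 0.857 to 0.9919 of that size in METTL3-HKD and 0.992 to 1.19 of it in METTL3-Flox libraries. Scaling between libraries had thus been applied before deposition, and its factor differed between the groups.

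Genes averaging 0.1 FPKM or more were compared as log2(FPKM + 0.1) with limma 3.58.1 (mean-variance trend, two-sided, Benjamini-Hochberg over 16645 genes) in R 4.3.3. A fold change on this scale understates that of low genes. Adjusted p values given without a tool are from this fit. The method was run on simulated data, with changes placed only in better covered genes. That run therefore does not cover members at a few reads, such as Ccnb2 and Birc5. Exact permutation tests over 70 arrangements used scipy 1.17.1 in Python 3.11.15. Their p is fixed at its smallest value wherever the groups are separate, so it adds nothing to that separation. P values measure the spread between these numbered mice. The precision is set by the reads, and floors of 3 reads cover counting error only.

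The members and lists were chosen with earlier results of these data known. All members are named; values per liver are given for those called or with separate groups, and for Top2a, Mcm3 and Ccnd1, chosen after their values were seen. Up to 3 called genes per list and direction are named, as are the most abundant markers. Overlaps use GENCODE M21, in which all 38 members have the deposited coordinates. Of the members, 14 share exonic bases with another gene, for 9 of them one at 10% of their level or more. Alternatives were a pseudocount of 1 FPKM, a minimum of 1 FPKM or none, no trend, voom on rebuilt reads, scaling to reads on genes, a replicate block and the omission of each liver.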

Additional observations from a re-analysis of the deposited data

Results flagged for a closer look

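Each of the 38 genes was examined in both groups for a liver far from the other livers of its group, by the gap to its nearest neighbour over the group's range. Of 76 groups, 6 had such a liver, and chance marks about 1 in 20 groups. Within METTL3-HKD, Ccnb2 was lowest in liver 1 at 0.0325 FPKM, the other livers lying at 0.176 to 0.181 FPKM, and that value is 1 read. Mcm7 was also lowest in METTL3-HKD liver 1, at 2.38 FPKM. Cdc6 was at 0 FPKM in METTL3-HKD liver 3, which allows up to 0.0318 FPKM, and at 0.0380 to 0.0414 FPKM in the others of its group.

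Within METTL3-Flox, Cdkn2c was lowest in liver 4 at 2.84 FPKM, and Cdk1 was lowest in the same liver at 0.189 FPKM against 0.360 to 0.385 FPKM in the rest. Plk1 was highest in METTL3-Flox liver 3 at 0.269 FPKM. Of the called genes, Ccnb2 and Cdkn2c are among these 6. Without METTL3-HKD liver 1, Ccnb2 had a log2 fold change of −1.04 (adjusted p = 0.0422), and without METTL3-Flox liver 4, Cdkn2c had −0.81 (adjusted p = 0.0703), by limma with Benjamini-Hochberg adjustment.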

How the results depend on the processing

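Leaving out each liver in turn gave 0 to 3 members called higher and 0 to 2 lower, 0 to 1 higher and 0 to 2 lower past both thresholds, 4 to 6 with METTL3-HKD above and 4 to 8 with METTL3-HKD below, 1 to 5 other cell cycle genes higher and 1 to 7 lower, role medians of −0.015 to 0.11 (G1), 0.21 to 0.41 (S phase) and −0.97 to −0.48 (mitotic), and a fold change of −0.26 to −0.056 for Mettl3. Over all genes tested, the same omissions called 4.49% to 9.95% higher and 2.13% to 6.89% lower. Both of these shares were lowest without METTL3-Flox liver 3, where 0 members were called. Pcna, Ccnb2, Birc5 and Cdkn2c kept their directions there. The most separate groups below (8) were seen without METTL3-Flox liver 2. Groups separate more easily with 1 liver left out, so these counts are not a result about the members. The shares of all genes with separate groups, or past both thresholds, are not given for these omissions. A pseudocount of 1 FPKM left 0 members past both thresholds and medians of 0.20 (S phase) and −0.17 (mitotic). A minimum of 1 FPKM, which removes all mitotic members, gave 2 higher, 1 lower and 0 past both thresholds. Of all genes, 11.7% were called higher and 10.76% lower at that minimum. Other cell cycle genes called lower numbered 4 with no minimum, 4 with no trend and 5 by voom, which called 2 members higher and put the mitotic median at −1.02. Scaling to reads on genes called 5 members and 9 other genes higher and 2 other genes lower, with medians of 0.22 (G1) and 0.55 (S phase), and turned the sign of Mettl3 (0.047), Ccne1 (0.070), Cdk2 (0.016), Cdk6 (0.18), Cdkn1b (0.17), Rb1 (0.15) and Tyms (0.086), all within the shift of 0.20 of all genes.

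Signs also turned on the omission of single livers, without a call, for Ccnd3 (−0.028 to 0.074), Cdk6 (−0.20 to 0.15), Aurka (−0.078 to 0.35), Cdkn1b (−0.086 to 0.0098), Rrm2 (−0.047 to 0.27), Mcm7 (−0.015 to 0.20) and Rb1 (−0.12 to 0.0060). Replicate numbers did not pair the livers: correlations of same-numbered livers ran from −0.0838 to 0.0711, and 1 of 4 numbers correlated best with its own. A replicate block gave 1 member higher (Pcna) and 0 lower, 0 past both thresholds and 4 other genes lower. With that block, 5.83% of all genes were called higher and 3.875% lower. Pcna was called in 14 of 15 alternatives, Ccnb2 in 10 of 14, Birc5 in 7 of 14 and Cdkn2c in 4 of 15. Mitotic members lie at a few reads per liver, which limits what these libraries can show for them. The causes of these changes were not tested.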
